A study of Homo sapiens with 28 samples.

Results

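The genes described here encode the machinery that shortens the poly(A) tail of an mRNA and then destroys the transcript. A list of 37 such genes was read on arrays of HEK293 cells in which RNA-processing and chromatin factors had been knocked down. A gene was kept when a probeset carried its symbol alone, and its probeset of highest mean was used, which left 34 of the 37 genes among 18417 measured genes. PAIP2B has only a probeset that also names another gene, and UPF3A and UPF3B have no probeset named for them; these 3 genes were not analysed here. The 34 genes comprise 11 of the CCR4-NOT complex, 3 of the PAN2-PAN3 and PARN deadenylases, 3 TOB and BTG adaptors, 5 regulators of poly(A)-binding protein and LARP proteins, 7 genes of decapping and 5'-to-3' decay, and 5 of nonsense-mediated decay.

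Most cytoplasmic mRNAs die by the same route. PAN2-PAN3 and CCR4-NOT trim the poly(A) tail, the decapping enzyme DCP2 removes the cap with the help of its cofactors, and XRN1 digests the body of the transcript from its 5' end. Adaptors such as TOB1 and TOB2 bring CCR4-NOT to poly(A)-binding protein, while nonsense-mediated decay, which turns on UPF1, UPF2 and the SMG proteins, recruits decay enzymes to transcripts whose translation ends too early.

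HEK293 is a human embryonic kidney line. Its cells received lentiviral pLKO vectors in which the U6 promoter drives a short hairpin RNA, were selected with puromycin and were harvested after 6 days, so every group, the control included, went through infection and selection. The first array series held cells knocked down for CLP1, DDX5, DDX17 and HNRNPL with 3 hairpins each, for CPSF6 with 1 hairpin, and 1 control array with a hairpin against the bacterial gene lacZ. In the second, 3 hairpins targeted each of SUPT16H, PRKDC, PARP1 and PABPC1, beside 2 lacZ arrays. Each array of a knockdown carries its own hairpin, while nothing in the labels ties the lacZ arrays to separate cultures, and p-values here reflect no more than the spread between the arrays, which may in part be technical. A lower value in a culture does not tell fewer expressing cells from less RNA per cell.

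Some arrays need to be known before the results. The lacZ array of the first series and lacZ replicate 2 of the second, deposited as separate samples, appear to be 1 array normalized with each series: after centring they differed by an SD of 0.0634 log2 units over all genes, against 0.232 between lacZ replicates 2 and 3. Comparisons with lacZ share controls within a series and may share 1 across the series, so their members are given side by side only. DDX5 hairpin 3 stood apart, with an SD over genes of 0.7575 and 0.5364 to the other DDX5 hairpins, where the pairs of CLP1, DDX17, PABPC1 and PARP1 hairpins lay between 0.1637 and 0.2678. HNRNPL hairpin 3 stood apart to a lesser degree (0.3909 and 0.3793 to the other HNRNPL hairpins), as did PRKDC hairpin 3 (0.3963 and 0.4028 to the other PRKDC hairpins, which differed by 0.1897). The pairs of SUPT16H hairpins reached 0.3086. Each target differed from lacZ in its own knockdown by -0.58 (CLP1) to -2.26 (PRKDC) log2 units. The adjusted p of that difference was 0.187 for CLP1, 0.0869 for DDX5 and 0.129 for HNRNPL, and at most 0.00254 for the other 5 targets. Of 8 markers of HEK293 cells, the median lay at the 92.5th percentile of all genes, whereas blood, fibroblast and keratinocyte markers had medians at percentiles 7.8, 23.6 and 23.1. The lists overlap: the HEK293 markers NEFM and PAX2 lay at percentiles 37.2 and 49.4, and the fibroblast marker COL1A1 at 60.6.

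Values are log2 intensities, comparable between arrays of a series and not between series. The 34 genes were well expressed. Their mean level over all arrays lay between the 68.4th percentile of all genes (SMG6, an endonuclease of nonsense-mediated decay) and the 98.0th (CNOT1, the scaffold of CCR4-NOT), with a median at the 85.9th. Since single probesets differ in brightness, these percentiles place the genes among all probesets and do not rank the proteins' abundance.

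CNOT4, EDC3 and UPF2 were called lower than lacZ in all 4 knockdowns of the second series. Their promoters are shown because only these 3 members were called in all 4. The 4 comparisons share the same 2 lacZ arrays, so the calls do not show that the genes moved together. RefSeq promoters (GRCh38.p14, 250 bases before to 50 after the start site) were found for 32 of the 34 genes and for 14239 of all measured genes. The windows below, 30 bases each and read on the strand of the gene, have in capitals the motif match nearest upstream of the start site: a GC box (GGGCGG or its complement CCGCCC) in CNOT4 and UPF2, and an ETS core (CCGGAA) in EDC3, whose promoter has no GC box. CNOT4 lies at chr7:135510130-135510159 on the minus strand, with the motif beginning 45 bases before the start site.
CNOT4: cccgcccctcccCCGCCCctcctggccgga
EDC3 lies at chr15:74696040-74696069 on the minus strand, with the motif 33 bases before the start site.
EDC3: caaggtgtcgcgCCGGAAgtgacctcacgg
UPF2 lies at chr10:12043307-12043336 on the minus strand, 154 bases before the start site.
UPF2: gtgagctccgccCCGCCCcattcgcgcttc
Searched on both strands, the GC box stood in 25 of the 32 promoters, against 60.0% of all measured genes' promoters, the ETS core in 10 (23.2% of all), the CCAAT box in 12 (36.3%), the E-box CACGTG in 3 (8.9%), namely CNOT4, PAIP2 and UPF2, and TATAA in 2 (15.96%). The median GC content was 65.8% over the 32 promoters and 63.0% over all. None of these motifs was shared by the 3 genes.

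To determine whether the decay machinery was expressed differently from the lacZ control, each knockdown was tested against the lacZ arrays of its series (limma, Benjamini-Hochberg adjusted p under 0.05 over all 18417 genes). Members were called lower, none higher, and all calls fell in the second series. PRKDC knockdown, which depletes the catalytic subunit of DNA-PK, a kinase of DNA end joining, had 19 of 34 lower, where 16.1% of all genes were. SUPT16H knockdown, which depletes a subunit of the histone chaperone FACT, had 7 lower (5.76% of all genes). PABPC1 knockdown, which depletes the cytoplasmic poly(A)-binding protein itself, had 5 lower (4.02%), and knockdown of PARP1, the DNA-damage sensor, had 4 lower (2.98%). The share of all genes called higher was 19.6%, 3.77%, 1.73% and 2.46% in the same order, and none of the 34 was among them. All 35 calls had the same sign in 3 of 3 hairpins. The sign is taken against the same lacZ mean as the call, so it adds no separate support.

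**Figure D1:**
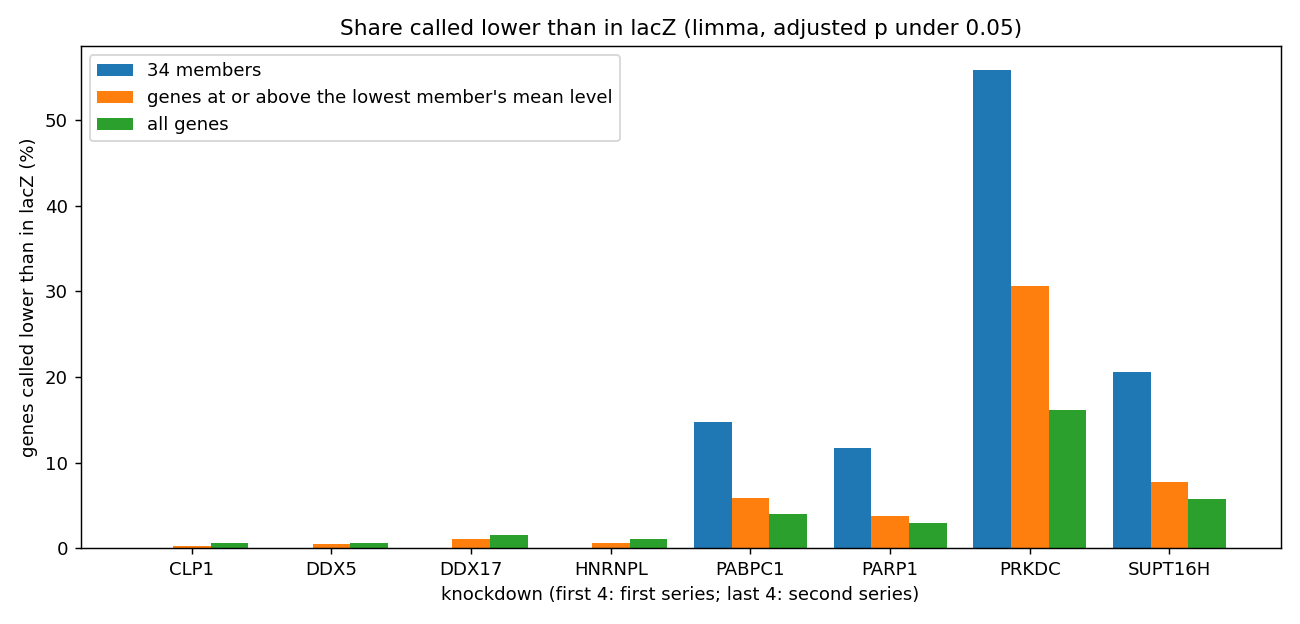
Share of genes called lower than in lacZ (limma, adjusted p under 0.05) in each knockdown, for the 34 decay genes, for the 5820 genes at or above the mean level of the dimmest of them, and for all genes. In PRKDC knockdown the bars stand at 55.9%, 30.62% and 16.1%; in the first series none of the 34 was called.

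In the second series, bright genes were called lower more often than all genes. Among the 5820 genes at or above the mean level of SMG6, the share called lower was 30.62% for PRKDC, 7.68% for SUPT16H, 5.84% for PABPC1 and 3.73% for PARP1, between that of all genes and that of the 34 (55.9%, 20.6%, 14.7% and 11.8%). The share of these bright genes called higher was 8.08%, 2.96%, 1.96% and 2.13% in the same order. The median difference of the 34 from lacZ was -0.67 in PRKDC, -0.32 in SUPT16H, -0.39 in PABPC1 and -0.39 in PARP1. The median of the bright genes was -0.33, -0.16, -0.17 and -0.10, and that of all genes 0.10, 0.07, 0.04 and 0.04. In the first series the share of bright genes called lower was 0.24% for CLP1, 0.45% for DDX5, 1.12% for DDX17 and 0.64% for HNRNPL, each below that of all genes (0.619%, 0.668%, 1.56% and 1.13%). The part that the level of expression plays in the calls was not tested.

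The calls rest on 2 control arrays. Without lacZ replicate 2, the array that appears in both series, 4 members remained called in PRKDC (CNOT4, PAN2, LARP4 and UPF2) and 0 in PABPC1, PARP1 and SUPT16H. Without lacZ replicate 3, 16 remained in PRKDC, 2 in SUPT16H (LARP4 and UPF2) and 0 in the other two. Leaving out hairpin 1, 2 or 3 gave 2, 1 and 1 called members in PABPC1 and 4, 3 and 3 in SUPT16H, and PARP1 had 0 without its hairpin 1. PRKDC had 19 called members without its hairpin 3, and 15 and 17 without hairpins 1 and 2. DDX5 hairpin 3 acts the other way, since all groups share 1 estimate of the spread: without that array the counts were 23 for PRKDC, 9 for SUPT16H, 12 for PABPC1 and 10 for PARP1, with every call of the full fit among them. For none of these refits was the share of all genes called counted.

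**Figure D2:**
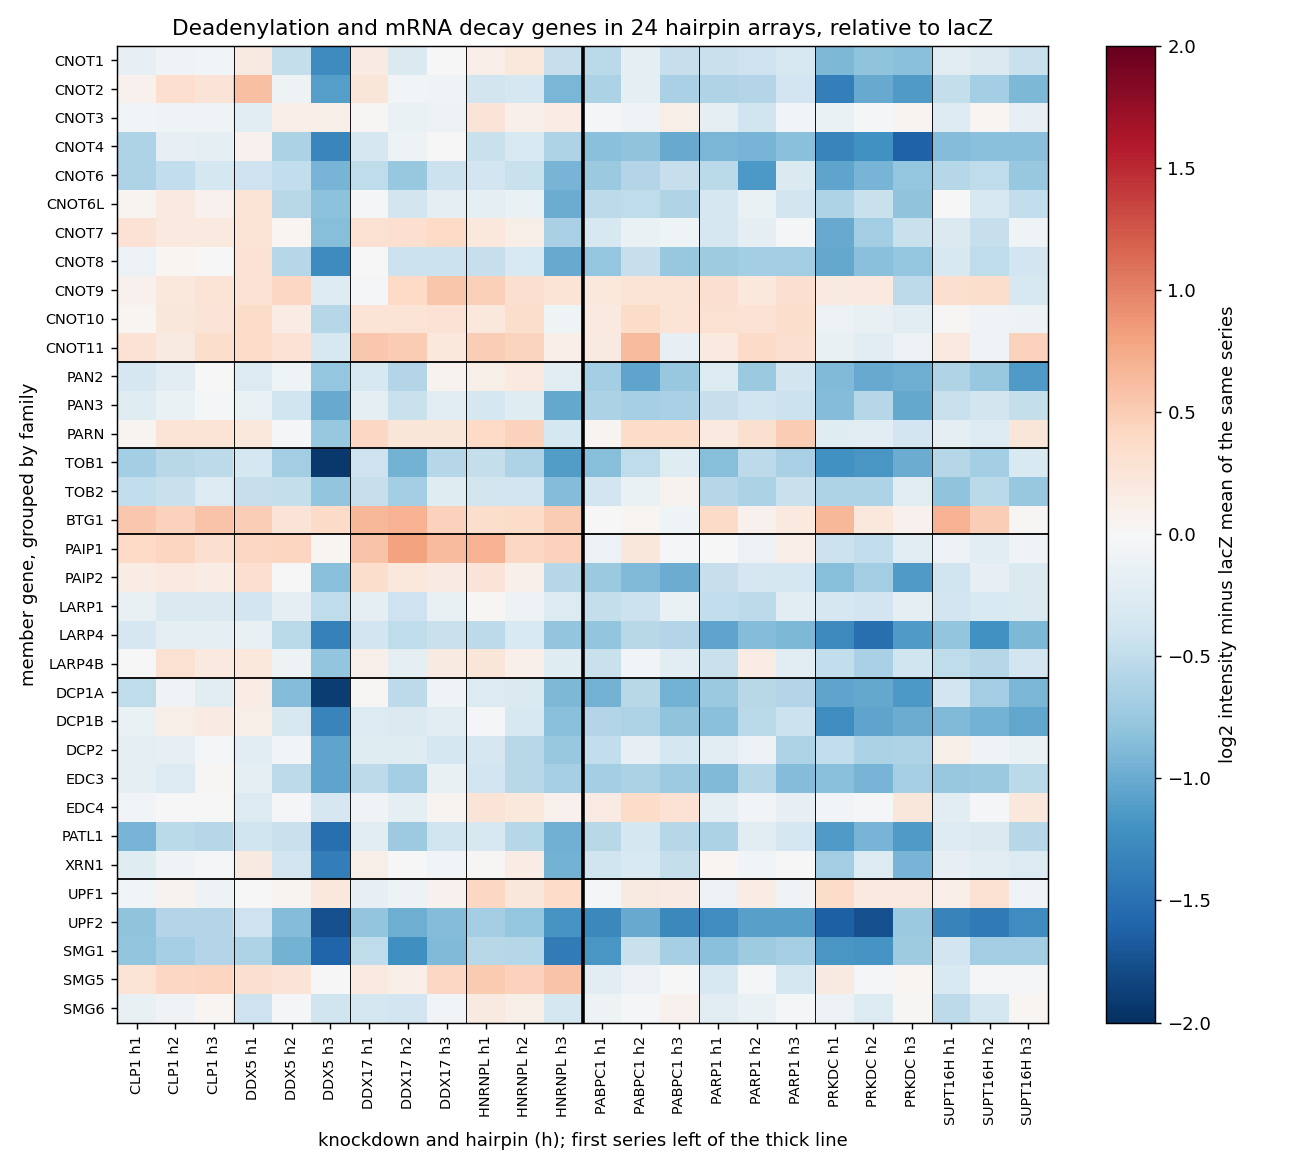
Log2 intensity of each of the 34 genes (rows, grouped by family) in each of the 24 hairpin arrays (columns) minus the lacZ mean of the same series; blue is lower, red higher. The second series, right of the thick line, is bluest in the 3 PRKDC arrays, and DDX5 hairpin 3 is the bluest column of the first series.

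The CCR4-NOT complex removes most of the poly(A) tail. CNOT4, a ubiquitin ligase associated with the complex, fell in all 4 knockdowns of the second series. Its lacZ arrays read 8.40 and 8.20, the PABPC1 hairpins 7.46, 7.49 and 7.30, the PARP1 hairpins 7.38, 7.38 and 7.47, the SUPT16H hairpins 7.44, 7.48 and 7.47, and the PRKDC hairpins 6.98, 7.09 and 6.68. All 12 hairpin arrays lay below both controls and the PRKDC arrays lay below the other 9. The difference was -0.88 ± 0.24 (SE, n = 3 against 2) in PABPC1 (limma adjusted p = 0.0311), -0.89 ± 0.24 in PARP1 (0.0288), -0.84 ± 0.24 in SUPT16H (0.0306) and -1.39 ± 0.24 in PRKDC (0.000582), where the intensity was 38.2% of that in lacZ. Among the members, CNOT4 had the largest difference in PRKDC.

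CNOT2, which with CNOT3 forms the NOT module of the complex, read 8.88 and 8.27 in lacZ and 7.22, 7.57 and 7.44 in the PRKDC hairpins. The PRKDC arrays did not overlap the controls, and the difference was -1.17 ± 0.30 (SE, n = 3 against 2; limma adjusted p = 0.00766). In PABPC1 knockdown, the arrays at 7.94, 8.38 and 7.93 lay on either side of the lower control. CNOT3 itself stayed within 0.21 of lacZ in each second-series knockdown, with no call.

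The catalytic subunits come as pairs of paralogs. CNOT6 and CNOT6L are nucleases of the exonuclease-endonuclease-phosphatase type, and CNOT7 and CNOT8 of the DEDD type. In PRKDC knockdown lower levels were called for CNOT6 (-0.92, limma adjusted p = 0.00412), CNOT8 (-0.88, 0.0187) and CNOT7 (-0.72, 0.0349), each with 3 of 3 hairpins below lacZ, whereas CNOT6L differed by -0.62 with an adjusted p of 0.0506. The scaffold CNOT1 read 9.91 and 9.57 in lacZ and 8.84, 8.94 and 8.90 in the PRKDC hairpins, a difference of -0.85 (limma adjusted p = 0.018). CNOT9, CNOT10 and CNOT11, which are non-catalytic subunits, differed by -0.04, -0.16 and -0.16 in PRKDC and were not called in any knockdown. In all, 6 of the 11 genes of the complex were called in PRKDC and 1 of 11, CNOT4, in each of PABPC1, PARP1 and SUPT16H. Of all genes, 16.1% were called lower in PRKDC, 4.02% in PABPC1, 2.98% in PARP1 and 5.76% in SUPT16H. Among the 5820 bright genes the shares were 30.62%, 5.84%, 3.73% and 7.68% in the same order.

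PAN2-PAN3 starts the shortening of the tail, and PARN is a deadenylase with a role in the nucleus. PAN2, the nuclease, read 7.63 and 7.74 in lacZ. It read 7.01, 6.63 and 6.93 in PABPC1, 6.80, 6.68 and 6.70 in PRKDC, 7.08, 6.92 and 6.55 in SUPT16H, and 7.41, 6.95 and 7.32 in PARP1. No hairpin array reached the controls, and the PARP1 arrays came nearest. PAN2 was called in PABPC1 (-0.83 ± 0.21, n = 3 against 2, limma adjusted p = 0.0236), PRKDC (-0.96 ± 0.21, 0.00365) and SUPT16H (-0.83 ± 0.21, 0.0187), and not in PARP1 (-0.46, 0.231). Its partner PAN3 was called in PRKDC alone (-0.82, limma adjusted p = 0.00882), with differences of -0.66, -0.43 and -0.43 in PABPC1, PARP1 and SUPT16H. PARN lay between -0.28 and 0.34 of lacZ, with no call. Whether a member differed more in one knockdown than in another was tested below, without lacZ.

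TOB1 and TOB2 bind both poly(A)-binding protein and the CCR4-NOT nucleases, and restrain proliferation, as does BTG1. TOB1 read 8.44 and 8.26 in lacZ and 7.14, 7.19 and 7.36 in the PRKDC hairpins, a difference of -1.12 ± 0.29 (n = 3 against 2; limma adjusted p = 0.00791). It was between -0.52 and -0.68 in the other 3 knockdowns, with no call. TOB2 read 7.64 and 7.67 in lacZ and 6.85, 7.11 and 6.90 in the SUPT16H hairpins, a difference of -0.70 ± 0.18 (limma adjusted p = 0.0206), and was called in PRKDC as well (-0.49, 0.0431). One PABPC1 hairpin, at 7.73, lay above both TOB2 controls. BTG1 differed from lacZ by -0.01 to 0.40 in the second series, with no call.

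Of the genes that act on poly(A)-binding protein, PAIP2 encodes a protein that pulls it off the tail, and PAIP1 one that favours translation. PAIP2 read 9.49 and 9.34 in lacZ. In the PABPC1 hairpins it read 8.68, 8.54 and 8.43, in the PRKDC hairpins 8.57, 8.73 and 8.28, in the PARP1 hairpins 8.96, 9.09 and 9.06, and in the SUPT16H hairpins 9.01, 9.26 and 9.12. The PABPC1 and PRKDC arrays thus lay together, below all PARP1 and SUPT16H arrays. PAIP2 was called in PABPC1 (-0.87 ± 0.24, n = 3 against 2, limma adjusted p = 0.036) and PRKDC (-0.89 ± 0.24, 0.0104), with -0.38 and -0.29 in PARP1 and SUPT16H. PAIP1 differed by -0.38 in PRKDC (limma adjusted p = 0.0664) and by -0.14 to 0.03 in the other 3 knockdowns.

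LARP4 encodes a protein that binds poly(A) and poly(A)-binding protein and protects tails. It read 9.20 and 8.97 in lacZ, 8.29, 8.53 and 8.50 in PABPC1, 8.02, 8.21 and 8.19 in PARP1, 7.81, 7.57 and 7.95 in PRKDC, and 8.30, 7.87 and 8.18 in SUPT16H. Every hairpin array lay below both controls. LARP4 was called in PARP1 (-0.94 ± 0.23, n = 3 against 2, limma adjusted p = 0.0152), PRKDC (-1.31 ± 0.23, 0.000643; 40.5% of lacZ) and SUPT16H (-0.97 ± 0.23, 0.0116), and in PABPC1 its difference was -0.64 (0.0915). LARP4B and LARP1, a regulator of mRNAs that encode ribosomal proteins, were not called. LARP1 differed by -0.42 to -0.30 and its 12 hairpin arrays nevertheless all lay below both controls.

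Decapping commits a transcript to decay. EDC3, a scaffold of the decapping complex, was called in all 4 knockdowns of the second series, with like differences. It read 7.88 and 7.92 in lacZ, 7.21, 7.27 and 7.16 in PABPC1, 7.01, 7.33 and 7.03 in PARP1, 7.06, 6.96 and 7.23 in PRKDC, and 7.13, 7.15 and 7.36 in SUPT16H. The hairpin arrays of the 4 knockdowns overlapped one another and none reached the controls. The difference was -0.68 ± 0.20 in PABPC1 (n = 3 against 2, limma adjusted p = 0.0405), -0.78 ± 0.20 in PARP1 (0.0192), -0.81 ± 0.20 in PRKDC (0.00549) and -0.68 ± 0.20 in SUPT16H (0.0315).

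DCP1B, an activator of the decapping enzyme, read 7.86 and 7.40 in lacZ, 6.38, 6.58 and 6.64 in PRKDC and 6.74, 6.68 and 6.59 in SUPT16H. Both knockdowns lay below the lower control, with differences of -1.10 ± 0.27 (n = 3 against 2, limma adjusted p = 0.00567) and -0.96 ± 0.27 (0.0277). Its paralog DCP1A was called in PRKDC alone (-1.08, limma adjusted p = 0.0215) from controls that lay apart, at 8.45 and 7.75. PATL1, which bridges deadenylation and decapping, was called in PRKDC (-1.07, limma adjusted p = 0.00477), as was the enzyme DCP2 (-0.58, 0.0376). XRN1, the 5'-to-3' nuclease, differed by -0.63 in PRKDC with an adjusted p of 0.0995, and the scaffold EDC4 by 0.04. In all, 5 of the 7 genes of this group were called in PRKDC, 2 in SUPT16H and 1, EDC3, in each of PABPC1 and PARP1. The shares of all genes called lower were 16.1%, 5.76%, 4.02% and 2.98% in that order. Those of the bright genes were 30.62%, 7.68%, 5.84% and 3.73%.

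Nonsense-mediated decay had 2 genes that moved. UPF2, the bridge between UPF1 and the exon junction complex, was the member with the largest difference in PABPC1, PARP1 and SUPT16H. It read 8.09 and 7.93 in lacZ, 6.72, 7.00 and 6.73 in PABPC1, 6.77, 6.92 and 6.92 in PARP1, 6.38, 6.25 and 7.27 in PRKDC, and 6.67, 6.60 and 6.77 in SUPT16H. The highest hairpin array, PRKDC hairpin 3, was still below the lower control. UPF2 was at 43.7% of lacZ in PABPC1 (-1.20 ± 0.27, n = 3 against 2, limma adjusted p = 0.0107), 45.4% in PARP1 (-1.14 ± 0.27, 0.0135), 39.8% in SUPT16H (-1.33 ± 0.27, 0.00397) and 38.5% in PRKDC (-1.38 ± 0.27, 0.00162).

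SMG1, the kinase that phosphorylates UPF1, read 9.26 and 8.88 in lacZ and 7.90, 7.88 and 8.36 in PRKDC (-1.02, limma adjusted p = 0.00973). The probeset used names SMG1 alone, but 13 others name it with further genes, copies of its sequence among them, so RNA of the copies may enter its value. UPF1, the helicase at the centre of the pathway, differed by -0.01 to 0.25 and SMG5 and SMG6 by -0.28 to 0.07 in the second series, with no call.

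**Figure D3:**
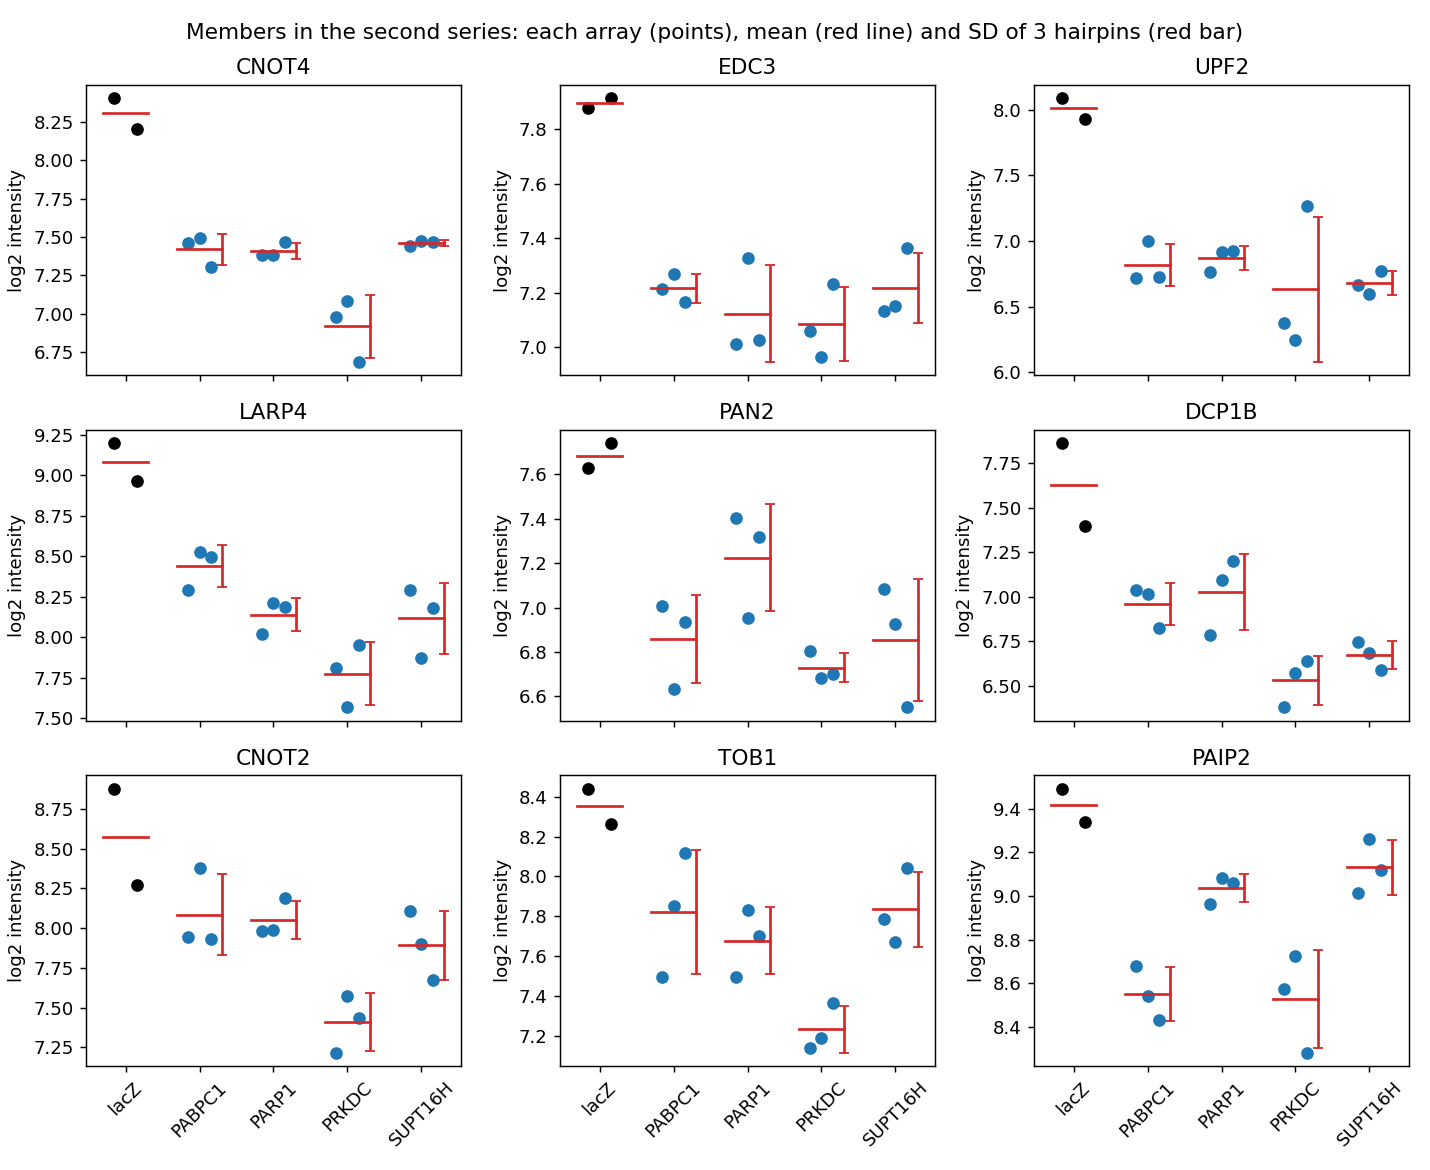
Log2 intensity in each array of the second series for 9 members: points are arrays (2 lacZ, 3 hairpins per knockdown), red lines group means, red bars the SD of 3 hairpins. For CNOT4, EDC3, UPF2, LARP4 and PAN2 every hairpin array lies below both lacZ arrays; for CNOT2 1 PABPC1 array lies between them.

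The second-series knockdowns were also pooled, in a comparison added after the data were seen. The mean of the 4 was called lower than lacZ for 14 of 34 members, against 9.78% of all genes lower and 7.8% higher: CNOT2, CNOT4, CNOT6, CNOT8, PAN2, PAN3, TOB1, TOB2, PAIP2, LARP4, DCP1B, EDC3, UPF2 and SMG1. No member was called higher. For 16 members both lacZ arrays lay above all 12 hairpin arrays, as they did for 12.4% of all genes, and for 0 members did both lie below all 12, as for 12.7% of all genes. Without lacZ replicate 2 the pooled comparison called 0 members, and without replicate 3 it called 4 (CNOT4, LARP4, DCP1B and UPF2).

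In the first series, whose 1 lacZ array is taken to vary like the other groups, none of the 34 genes was called in either direction. The shares of all genes called lower and higher were 0.619% and 0.337% in CLP1 (a kinase of the 3' end processing complex), 0.668% and 0.174% in DDX5 and 1.56% and 1.22% in DDX17 (paralogous RNA helicases), and 1.13% and 0.7% in HNRNPL (a splicing regulator). At an unadjusted p under 0.05, limma had 1 member lower and 1 higher in CLP1, 8 and 0 in DDX5, 3 and 2 in DDX17, and 5 and 2 in HNRNPL. At that p, 3.9%, 6.7%, 7.8% and 7.0% of all genes were lower in the same order, and 9.2%, 11.4%, 14.7% and 13.2% differed in either direction. The pooled comparison of the 4 knockdowns also called 0 members, against 1.15% of all genes lower and 0.635% higher.

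Several members still stood apart from the lacZ array. UPF2 read 8.52 there, while the 12 hairpin arrays lay between 6.76 and 8.11 with a median of 7.73. SMG1 read 9.66 against 8.06 to 9.15 with a median of 8.93. PAIP1 read 8.61 against 8.65 to 9.41 with a median of 9.04. Both falls and the rise thus separated the control from every hairpin array, yet the pooled differences of -0.86 for UPF2 (limma adjusted p = 0.203), -0.86 for SMG1 (0.202) and 0.47 for PAIP1 (0.257) did not pass. In all, lacZ lay above the 12 hairpin arrays for 9 members (CNOT6, PAN3, TOB1, TOB2, LARP4, DCP2, PATL1, UPF2 and SMG1), as for 11.2% of all genes, and below them for 3 (BTG1, PAIP1 and SMG5), as for 9.31%. This lacZ array appears to be lacZ replicate 2 of the second series, so the 2 series may not be independent on UPF2 or SMG1.

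The lacZ control may be set aside by comparing knockdowns with one another. Each knockdown was compared with the mean of the other 3 of its series, and 0 of 34 members were called in any of the 8 comparisons. The share of all genes called in either direction was 0.722% for CLP1, 0.038% for DDX5, 0.874% for DDX17, 0.0977% for HNRNPL, 0.0869% for PABPC1, 0.554% for PARP1, 0.0869% for PRKDC and 0.0109% for SUPT16H. At an unadjusted p under 0.05, limma counted 5, 4, 1, 4, 4, 4, 13 and 3 members in the same order, where 17.3%, 9.2%, 11.7%, 8.5%, 10.3%, 18.6%, 24.5% and 9.0% of all genes passed. A moderated F test among the 4 knockdowns of a series also called 0 members in both series (1.11% of all genes in the first and 0.939% in the second), with 2 and 8 members at an unadjusted p under 0.05, as 14.8% and 21.7% of all genes.

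For PRKDC the outcome turned on the shared estimate of the spread. All 13 members with an unadjusted p under 0.05 were lower than in the other 3 knockdowns, the median of the 34 was -0.32, and 27 of 34 differences were negative, where the 5820 bright genes had a median of -0.17 with 72.7% negative, and 43.5% of all genes were negative. The differences included PATL1 at -0.64, CNOT2 at -0.60, TOB1 at -0.55 and CNOT4 at -0.51. When each series was fitted alone, 15 members were called lower in PRKDC than in the other knockdowns, and without the array of DDX5 hairpin 3 the count was 12; PATL1, CNOT2, TOB1, CNOT4, CNOT7, CNOT1, LARP4, PARN, DCP2, CNOT10 and PAIP1 were called in both. The F test of the second series then called 10 and 8 members. How many of all genes were called in these refits was not counted, so these member counts have no background beside them. EDC3 (-0.10) and UPF2 (-0.16), lower than lacZ in all 4 knockdowns, were called in neither.

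**Figure D4:**
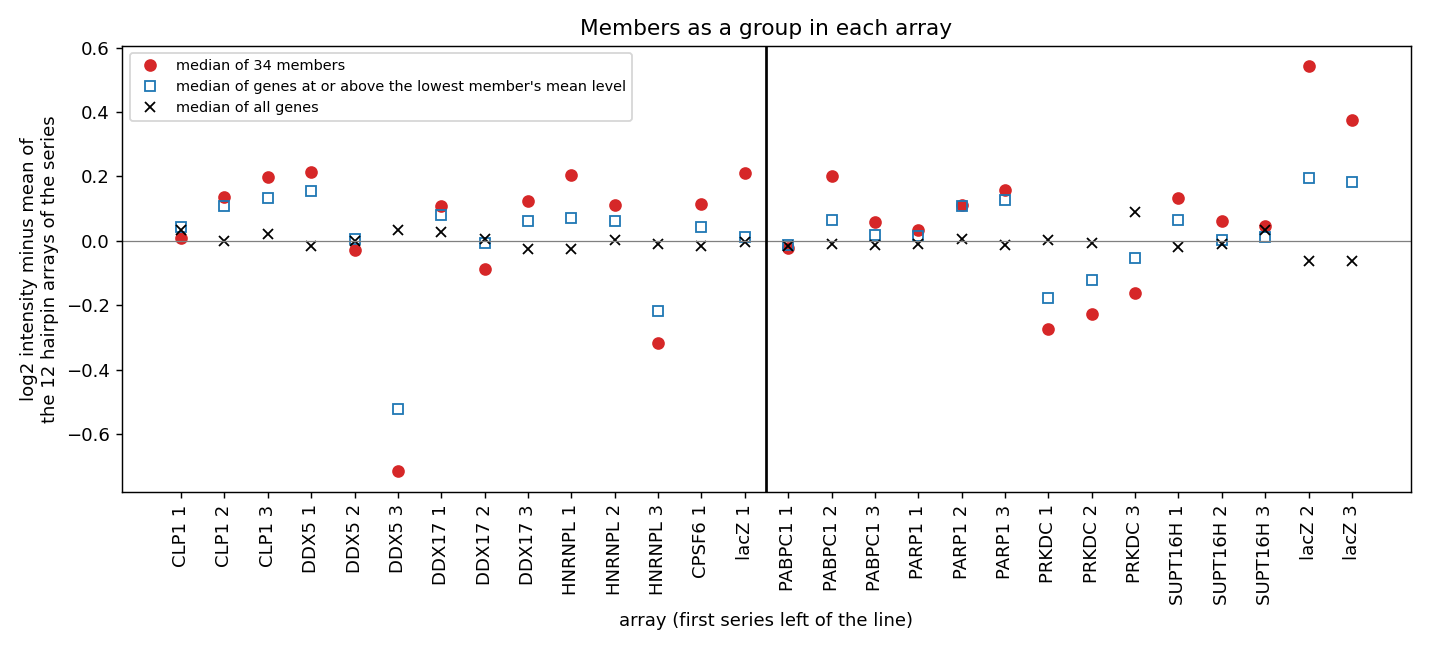
Median over the 34 members (red), over the 5820 genes at or above the mean level of the dimmest member (blue squares) and over all genes (crosses) of the log2 intensity minus the mean of the 12 hairpin arrays of the series, for each array. DDX5 hairpin 3 is lowest at -0.72, the PRKDC hairpins lie at -0.27, -0.23 and -0.16, and the second-series lacZ arrays at 0.54 and 0.38; the bright genes move the same way by less.

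The members moved as a block in single arrays. Relative to the mean of the 12 hairpin arrays of its series, the median of the 34 was -0.72 in DDX5 hairpin 3, with 32 of 34 members lower, and -0.32 in HNRNPL hairpin 3. The other 2 DDX5 hairpins lay at 0.22 and -0.03, so the hairpins of DDX5 do not give 1 answer. The median of bright genes was -0.52 in DDX5 hairpin 3 and -0.22 in HNRNPL hairpin 3, and that of all genes 0.03 and -0.01. DCP1A, for example, read 8.97, 7.96 and 6.92 in the DDX5 hairpins, and 8.82 in lacZ. In DDX5 against the other knockdowns 33 of 34 differences were negative with a median of -0.22, where 78.1% of bright genes were negative with a median of -0.15, and 46.8% of all genes. Without DDX5 hairpin 1 the count of called members went from 0 to 13, and from 0 to 6 against lacZ. In that refit the share of all genes called was not counted.

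In the PRKDC arrays the medians were -0.27, -0.23 and -0.16, so all 3 hairpins lay on the same side, and the other second-series hairpins lay between -0.02 and 0.20. PABPC1 hairpins, which deplete the protein that several of these factors bind, lay at -0.02, 0.20 and 0.06. The 2 lacZ arrays were at 0.54 and 0.38, above every hairpin array of the series. The bright genes had the same order by less, with medians of 0.195 and 0.183 in lacZ and -0.177, -0.122 and -0.053 in PRKDC. Between them, the members differed by a median of 0.11 (lacZ replicate 2 minus 3), from -0.34 to 0.70.

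Pairs of paralogs were correlated over arrays in which the members also moved as a block. Over the 24 hairpin arrays, as deviations from the mean of the series, Pearson's r was 0.82 for DCP1A and DCP1B, 0.81 for LARP4 and LARP4B, 0.75 for CNOT7 and CNOT8, 0.48 for TOB1 and TOB2, and 0.45 for CNOT6 and CNOT6L. Without DDX5 hairpin 3 these were 0.66, 0.69, 0.63, 0.41 and 0.36. They are descriptions over arrays that share a series and normalization. Pairs of other members were not correlated, so the values do not tell whether paralogs moved more alike than other members. CNOT6L has 2 probesets of its own, and both read lower than lacZ in PRKDC, by -0.62 and -0.74.

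CPSF6, a factor that favours distal poly(A) sites, was knocked down in 1 array, which allows no test. CPSF6 read 8.65 there and 10.01 in the lacZ array of its series. The 34 members differed from that lacZ array by -0.54 (TOB1) to 0.52 (CNOT11), with a median of -0.07 and 21 of 34 lower, where the median of all genes was -0.02 and 53.2% were lower.

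The wider decay pathway was read for 78 further genes of the exosome, decapping, recruitment, tailing and nonsense-mediated decay. Of these 78, PRKDC had 21 lower and 7 higher, PABPC1 4 and 2, PARP1 1 and 2, and SUPT16H 3 and 3. In the first series CLP1 had 1 lower and 0 higher, DDX5 2 and 0, DDX17 2 and 3, and HNRNPL 2 and 0. Of all genes, 16.1% were lower in PRKDC (30.62% of the bright genes), 4.02% in PABPC1, 2.98% in PARP1 and 5.76% in SUPT16H. Called higher were 19.6% (8.08% of the bright genes), 1.73%, 2.46% and 3.77% in the same order. In the first series 0.619% to 1.56% of all genes were lower and 0.174% to 1.22% higher. In PRKDC the 78 had a median difference of -0.30, against -0.33 for the bright genes. Against lacZ, the exosome and Ski genes in PRKDC had 5 of 18 lower and 2 higher, with EXOSC8, a core subunit, at -1.29 (limma adjusted p = 0.00789) and DIS3, the nuclease of the exosome, at -1.26 (0.00516). The genes of decapping and the LSM ring had 3 of 18 lower and 4 higher in PRKDC: LSM3, a subunit of the ring, at -1.39 (limma adjusted p = 0.00432), the RNA helicase DDX6 at -1.05 (0.00157), and the decapping enzyme NUDT16 at 1.10 (0.00028). NUDT16 was also called higher in PABPC1, PARP1 and SUPT16H, by 0.88, 0.67 and 0.72.

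Among 20 measured genes that recruit the machinery to its targets, 7 were lower and 1 higher in PRKDC. Beside this count and those that follow, 16.1% of all genes were lower and 19.6% higher in PRKDC. Of the bright genes, 30.62% were lower and 8.08% higher. RC3H1, which encodes Roquin, was at -1.23 (limma adjusted p = 0.00338) and the Argonaute AGO3 at -1.07 (0.00606). ZFP36, which brings CCR4-NOT to AU-rich transcripts, was called lower than lacZ in all 8 knockdowns, by -0.85 in SUPT16H to -1.60 in CLP1; those of a series share controls. Among 9 other deadenylases and tailing enzymes 4 were lower and 0 higher in PRKDC, TUT4, a terminal uridylyltransferase, at -1.18 (limma adjusted p = 0.00109), TENT4B at -1.02 and TUT7 at -0.97. Among 13 further genes of nonsense-mediated decay and the exon junction complex, 2 were lower in PRKDC, the release factor GSPT1 at -0.79 and SMG8 at -0.64.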

How the data were processed

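RNA of HEK293 cells was read on Human Gene ST1.0 arrays after amplification with random primers. The authors made the deposited probeset intensities with RMA (background correction, quantile normalization and summary of probes, in aroma.affymetrix). The array medians differ between the series, which appear to have been normalized apart. RMA forces arrays normalized together to one distribution, so differences are relative to the other genes. The 33252 probesets of 28 arrays gave 19460 with exactly 1 symbol and 18417 genes, by the probeset of highest mean. The deposited linear intensities (4.25 to 18486) were taken to log2 without a pseudocount or filter.

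One linear model over 28 arrays (limma 3.58.1, R 4.3.3; a coefficient per knockdown and a term for the series; eBayes with an intensity trend, 17 residual and a median of 8 prior degrees of freedom) gave all comparisons. p-values were two-sided and adjusted by Benjamini-Hochberg over all genes, with a threshold of 0.05. The calling was tested on simulated data. Summaries and figures used Python 3.11.15, numpy 2.4.6, pandas 2.3.3 and matplotlib 3.10.9. Full statistics went to at most 6 called members per comparison with the same sign in 3 hairpins, by size, and at most 3 called genes per further list and comparison. The gene members and all lists (decay genes, short-lived transcripts, substrates of nonsense-mediated decay, targets and cell markers) were chosen with earlier results of these data known. The number of arrays limits the precision. Promoters and gene positions came from RefSeq tables (GRCh38.p14). Alternatives are given in the closing section.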

Additional observations from a re-analysis of the deposited data

How the results depend on the processing

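No alternative reversed a call: of 644 recalculations of the 49 single calls, 515 stayed past the threshold and 129 did not, and adjusted p-values ran from 7.43e-06 to 0.497. CNOT4, LARP4, PAN2 and UPF2 in PRKDC passed under all 14 alternatives run for them. Of 244 counts of called members under alternatives, 206 stayed within 1.5 times the main count. Many main counts were 0, and a 0 that stayed 0 is among the 206. Against lacZ, the count for PABPC1 was 5 in the main fit and 0 to 15 under alternatives. That for SUPT16H was 7 and 0 to 14. The alternatives were counted for the members only, without the share of all genes called. Members called lower than lacZ were 15 (PABPC1), 11 (PARP1) and 14 (SUPT16H) with each series fitted alone, where PRKDC against the other knockdowns gave 15 and the F test of the second series 10. Another alternative used all lacZ arrays without a series term. It took values quantile-normalized over all arrays and averaged lacZ replicates 1 and 2 into 1 array. Its counts against lacZ were 1 (CLP1), 2 (DDX5), 2 (DDX17), 7 (first series pooled) and 9 (second series pooled). With quantile normalization over all arrays and the main model, the counts were 1 for DDX17, 1 for the first series pooled and 1 for PRKDC against the other knockdowns. At most 2 members were called higher in any alternative. Leaving out the DDX5 hairpin 3 array, an alternative chosen after seeing the data, gave 12 (PABPC1) and 10 (PARP1) against lacZ, 12 for PRKDC and 1 for HNRNPL against the other knockdowns, and 1 and 8 in the F tests of the first and second series. With 1 lacZ array left, that array is taken to vary like the other groups. Leaving out 1 array at a time gave 0 to 2 members for PABPC1, 0 to 3 for PARP1, 4 to 19 for PRKDC, 0 to 4 for SUPT16H, 0 to 6 for DDX5 against lacZ, 0 to 13 for DDX5 against the other knockdowns and 0 to 4 for the second series pooled. For the F test, 1 hairpin number was left out of every knockdown at once, which gave 0 to 1 members in the second series.

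Hairpin numbers name different sequences in each gene, so they do not pair arrays: of 36 same-numbered pairs 15 had deviations correlated over 0.1, from -0.575 to 0.833. With the hairpin number as a replicate block, fitted on 24 arrays, 0 members were called against the other knockdowns and in both F tests, as without it. The pooled comparison and its alternatives were also added after the data were seen.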

Other observations

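Transcripts that the decay machinery is known to act on were read as well. Their lists were written from general knowledge, but with earlier results of these data known. Among 8 measured substrates of nonsense-mediated decay, which include stress-response genes, 5 were lower than lacZ in PABPC1, 4 in PARP1, 4 in PRKDC and 2 in SUPT16H, and 1, UPP1, was higher in PRKDC (0.34, limma adjusted p = 0.0311). The share of all genes called lower was 4.02%, 2.98%, 16.1% and 5.76% in the same order of knockdowns. In PABPC1, DDIT3 was at -1.45 (limma adjusted p = 0.00121), EPB41L4A-AS1 at -1.33 (0.000226) and ZFAS1 at -0.95 (0.00132). In the first series UPP1, a uridine phosphorylase, was higher in CLP1 (0.62), DDX5 (0.63) and HNRNPL (0.82), ZFAS1 was higher in DDX17 (0.78, limma adjusted p = 0.0479), and GADD45B was lower in CLP1 (-1.90) and DDX17 (-1.63). Several of these genes are also targets of the stress factor ATF4, itself on the list and lower in all 4 second-series knockdowns, by -0.54 to -0.85. The part of ATF4 in these differences was not tested.

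Among 17 short-lived transcripts 2 were lower than lacZ in PABPC1, 5 in PARP1, 2 in PRKDC and 3 in SUPT16H, beside those same shares of all genes, and 0 were higher; the first series had 1 to 4 lower, beside 0.619% to 1.56% of all genes, with KLF10 higher in DDX17 (1.11) and HNRNPL (1.32). SGK1, a kinase gene, was lower in all 8, by -0.63 (PABPC1) to -1.62 (DDX17), and these comparisons share lacZ arrays. FOSB was lower in CLP1 (-1.60), DDX17 (-1.46), HNRNPL (-1.32), PARP1 (-1.18) and SUPT16H (-1.02).

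Across the 34 members, the mean second-series difference from lacZ had a Pearson's r of 0.04 (Spearman's rho 0.06) with the level, -0.27 (-0.24) with the log10 length of the gene and, over 32 members, -0.14 (-0.06) with promoter GC content. Genes are not independent replicates, and these are descriptions.

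Some markers of other cell types were called. In PRKDC 2 of 5 fibroblast, 1 of 4 keratinocyte and 1 of 4 blood markers were higher, and the lists' median differences were 0.23, 0.31 and 0.17. Of the HEK293 markers 2 of 8 were lower in PRKDC. Among all genes, 19.6% were called higher and 16.1% lower in PRKDC, 3.77% higher in SUPT16H and 1.22% higher in DDX17. The fibroblast markers PDGFRB (0.50) and COL1A2 (0.57), the keratinocyte marker KRT14 (0.55, from a level at the 41.1st percentile of all genes) and the blood marker HBB (0.40) were higher than lacZ in PRKDC, PDGFRB in SUPT16H (0.47) and LUM in DDX17 (0.62), while the HEK293 marker NEFL was lower in DDX17 and all 4 second-series knockdowns, by -1.19 to -2.04, and LIN28B in PRKDC (-1.47). Their part in the members' results was not tested.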
